A study of Mus musculus with 2 samples.

Results

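The cytoplasmic ribosomal protein genes were followed across the cell classes of perfused mouse liver, with and without induction of an active YAP. The genes were taken by symbol, as every row named Rpl or Rps with a number and up to a letter and a digit, together with Rplp0, Rplp1, Rplp2 and Rpsa. Of the 31053 genes in the count table, 83 had such a symbol and 80 of these had at least 10 unique molecular identifiers (UMIs, each standing for 1 captured transcript). The 3 left out were Rpl10l with 1 UMI, Rpl39l with 3 and Rpl3l with 4, which are paralogs best known from testis or muscle. The 80 members comprised 32 genes of the small subunit, 45 of the large subunit and the 3 genes of the P stalk (Rplp0, Rplp1 and Rplp2). No measured value entered the choice other than the minimum of 10 UMIs.

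The study asked what an activated YAP, the effector of the Hippo pathway, does to transcription in adult hepatocytes. Hepatocytes of C57BL/6 mice were isolated by liver perfusion and profiled in droplets with 3' v3 reagents, giving 1 library per group. The control library had the genotype LaptTA;WT and the tetYAP 4W library the genotype LaptTA; tetYAP, so both carried the tetracycline transactivator, which is driven by the liver-specific LAP promoter. The tetYAP allele encodes YAP S127A, a mutant that lacks an inhibitory phosphorylation site, and was held silent with doxycycline in the food until the mice were 4 weeks old. The tetYAP 4W library was taken after 4 weeks of induction, and the study describes the controls of its bulk liver assays as littermates without induction, but does not say this of the control library here. The sex and number of the animals behind each library are not given in the sources used here. With 1 library per group no test between groups was possible, and every interval is a 95% interval of counting error alone.

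The small subunit of the ribosome decodes the messenger RNA, while the proteins of the large subunit surround the centre that joins amino acids. Ribosomes are built in the nucleolus from ribosomal RNA and about equal numbers of each ribosomal protein. The mRNAs of these proteins are short, abundant and stable, and most begin with a C followed by a run of pyrimidines, the 5' terminal oligopyrimidine (TOP) tract, through which the kinase mTORC1 and the RNA-binding protein Larp1 control their translation. In liver the demand for ribosomes is known to rise when hepatocytes grow or divide.

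Counting depth was 9509885 UMIs over 2989 barcodes in the control and 6777210 UMIs over 1524 barcodes in tetYAP 4W, and the median barcode had 3117 and 4150 UMIs. No barcode sequence occurred in both. Although both libraries are labelled as hepatocytes, the hepatocyte-like class held 2664 control but only 673 tetYAP 4W barcodes, and the rest of the tetYAP 4W library was mostly macrophage-like (273), unnamed (150), T or NK cell-like (132) and endothelial-like (129). Classes were drawn without the ribosomal protein genes, so a class does not rest on them. The hepatocyte-like class was named by what was left: its clusters had all 12 hepatocyte markers at 10 UMIs or more and no raised set of markers of another class, but none had 3 hepatocyte markers raised 3-fold over the rest of its library. Cluster 17, which holds 490 of the 673 tetYAP 4W barcodes, had the 12 markers at 8.58% of all UMIs, near the 8.38% of the unnamed cluster 14, and at 22.5% of the UMIs outside mitochondrial genes, against 14.2% in cluster 14, 18.2% in cluster 16 and between 10.7% and 15.4% in the control hepatocyte-like clusters. The hepatocyte-like class was made of clusters 0 to 3 in the control and of clusters 15, 16 and 17 in tetYAP 4W, so library and cluster cannot be told apart in it, and most endothelial-like barcodes came from clusters 4 and 6 in the control and cluster 10 in tetYAP 4W. The 12 hepatocyte marker genes took 8.90% of all UMIs in the tetYAP 4W hepatocyte-like barcodes, but also 6.55% in the T or NK cell-like and 4.90% in the endothelial-like barcodes of that library, and 8.80% in the control endothelial-like barcodes against 10.7% in the control hepatocyte-like ones. The X-inactivation transcript Xist was counted 4859 times in tetYAP 4W and 3 times in control barcodes. What goes with Xist and what goes with the induction cannot be told apart in any comparison between the libraries. What the hepatocyte marker RNA in the other classes and the difference in Xist contribute to the values below was not tested.

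The pyrimidine tract at the start of these genes is shown first, because a larger part of the members than of all genes had one and the rule did not use it. RefSeq promoters of the GRCm38.p6 assembly (mm10) were at hand for 60 of the 80 members. A tract was taken as a C at the annotated start or up to 10 bases downstream, on the strand of the gene, followed by at least 5 bases that are each C or T. It was found in 23 of the 60 members (38.3%), against 12.7% of all 27025 genes with an entry and 12.5% of the other genes with at least 1000 UMIs. Anywhere within 50 bases of the start on either side, a window added after the data were seen, it was found in 93.3% of the members and 61.8% of all genes. Below are 30-base windows that start 10 bases before the annotated start, with the tract in capitals, for members that later results turn on. Rpl27a and Rps18 were among the members lowest in tetYAP 4W hepatocyte-like barcodes and Rpl22l1 among the highest. Rpl10, also among the lowest there, and Rpl7l1, the highest, had no tract from the start to 10 bases downstream and are not shown. Rps15a and Rps27 were the highest over all barcodes, and Rps2 and Rps27l the lowest.
Rpl27a, chr7:109519185-109519214, plus strand: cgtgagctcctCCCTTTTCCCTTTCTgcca
Rps18, chr17:33955646-33955675, minus strand: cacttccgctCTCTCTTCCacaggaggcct
Rpl22l1, chr3:28805498-28805527, plus strand: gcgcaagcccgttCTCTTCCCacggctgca
Rps15a, chr7:118116128-118116157, minus strand: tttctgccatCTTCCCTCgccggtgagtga
Rps27, chr3:90213629-90213658, minus strand: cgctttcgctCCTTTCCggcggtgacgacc
Rps2, chr17:24720053-24720082, plus strand: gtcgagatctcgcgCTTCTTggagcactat
Rps27l, first start, chr9:66946076-66946105, plus strand: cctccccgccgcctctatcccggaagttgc
Rps27l, second start, chr9:66946403-66946432, plus strand: gggcttcagggtcactaacgggcctcgcag

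A tract of this form was thus present both in members that were lowest and in members that were highest in the tetYAP 4W library. Rps27 carried one at its annotated start. Its paralog Rps27l carried none from either start to 10 bases downstream, but had one within 50 bases of a start. Of the other lists, the tract was found in 5 of 13 translation factors (38.5%), 2 of 20 initiation factors (10%), 0 of 26 ribosome biogenesis genes and 5 of 69 mitochondrial ribosomal protein genes (7.25%).

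The share of UMIs taken by the 80 genes differed between the cell classes. In the tetYAP 4W library it was highest in T or NK cell-like barcodes at 16.0% (15.9 to 16.1), followed by B cell-like (12.8%), neutrophil-like (11.9%), endothelial-like (9.59%) and macrophage-like barcodes (7.39%). The unnamed cluster, led by Ppbp and Pf4, had 6.43%, stellate or mesenchymal-like barcodes 5.60%, erythroid-like barcodes 2.80% and hepatocyte-like barcodes 2.30% (2.28 to 2.31). Counted per barcode, that was 764 ribosomal protein UMIs in a T or NK cell-like barcode (Poisson interval 759 to 768), 564 in an endothelial-like, 322 in a macrophage-like and between 99.2 and 101 in a hepatocyte-like one, at median depths of 4716, 5963, 4089 and 4055 UMIs. In the control the range was narrower among classes of at least 10 barcodes. T or NK cell-like barcodes had 11.4% (15 barcodes), macrophage-like 5.51%, endothelial-like 5.41%, stellate or mesenchymal-like 4.90% and hepatocyte-like 4.82% (4.81 to 4.84), or 151 UMIs per hepatocyte-like barcode. The control stellate or mesenchymal-like barcodes had hepatocyte markers at 10.6% of UMIs, about the level of the control hepatocyte-like barcodes. Smaller control classes had 15.9% (1 neutrophil-like barcode), 9.10% (4 B cell-like) and 4.97% (3 erythroid-like).

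**Figure D1:**
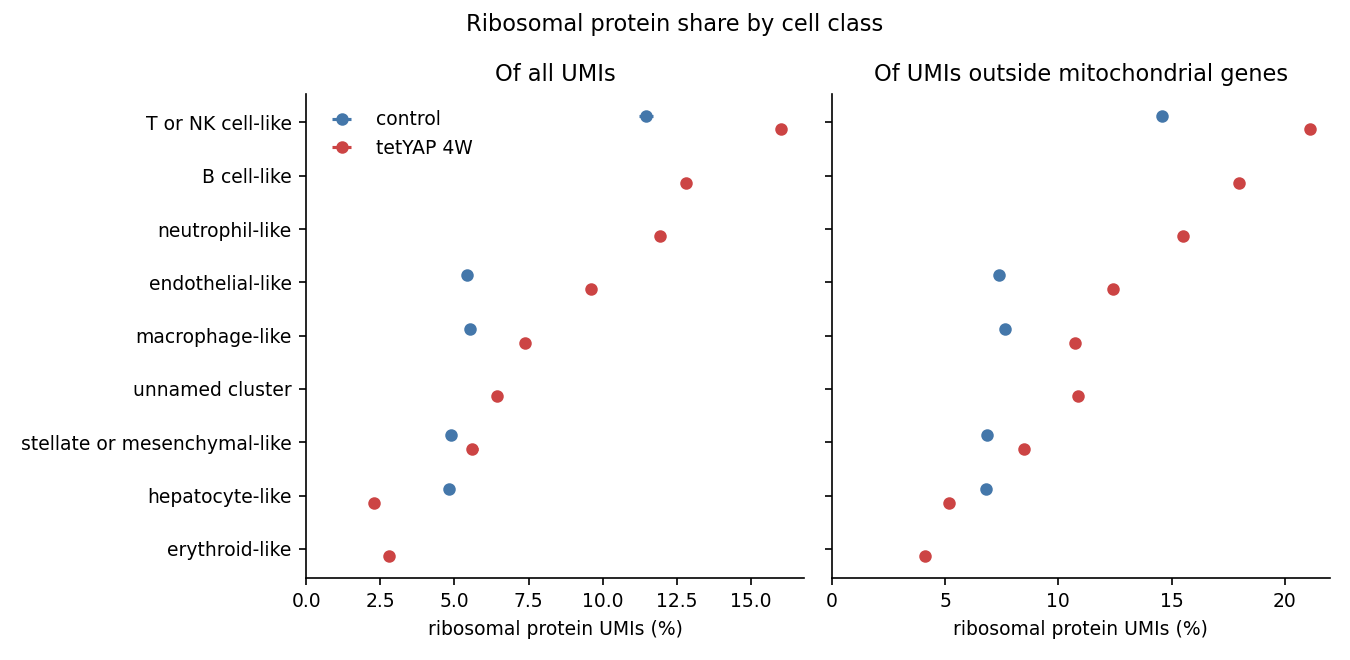
Share of UMIs from the 80 ribosomal protein genes (x axis, percent) by cell class (y axis) in the control (blue) and tetYAP 4W (red) libraries, of all UMIs (left, with exact 95% binomial intervals, mostly narrower than the points) and of UMIs outside mitochondrial genes (right). Classes with at least 10 barcodes are shown; hepatocyte-like barcodes are lower in tetYAP 4W (2.30% against 4.82% of all UMIs), while the 4 other classes shown for both libraries are higher.

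Between the libraries, the share was lower in tetYAP 4W in hepatocyte-like barcodes and higher in the 4 other classes with at least 10 barcodes in both libraries. In hepatocyte-like barcodes it was 2.30% against 4.82%, a log2 ratio of -1.07 (-1.08 to -1.06) or 2.10-fold lower. In endothelial-like barcodes the log2 ratio was 0.83 (0.81 to 0.84), in T or NK cell-like barcodes 0.48 (0.45 to 0.52), in macrophage-like barcodes 0.42 (0.39 to 0.46) and in stellate or mesenchymal-like barcodes 0.19 (0.14 to 0.25). These ratios rest on 129 and 164 endothelial-like, 132 and 15 T or NK cell-like, 273 and 43 macrophage-like and 19 and 95 stellate or mesenchymal-like barcodes in tetYAP 4W and control. Hepatocyte markers fell short of the control level in each of them, for example 4.90% against 8.80% of UMIs in endothelial-like and 6.55% against 7.87% in T or NK cell-like barcodes.

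The mitochondrial genes took 55.6% of the UMIs of tetYAP 4W hepatocyte-like barcodes and 28.9% of the control ones, and they enter the total of which the share is taken. Of the UMIs outside the 13 mitochondrial genes, the ribosomal protein genes had 5.17% in tetYAP 4W and 6.79% in control hepatocyte-like barcodes, and the log2 ratio was -0.39 (-0.40 to -0.38). The difference was then 1.31-fold in place of 2.10-fold. In the other classes the change of total mattered less, with log2 ratios of 0.75 in endothelial-like, 0.53 in T or NK cell-like, 0.48 in macrophage-like and 0.30 in stellate or mesenchymal-like barcodes. Within tetYAP 4W, erythroid-like barcodes were lowest with this total at 4.10%, below the 5.17% of hepatocyte-like ones.

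Over the whole range of hepatocyte-like barcodes of 1 library, a higher mitochondrial share went with a lower ribosomal protein share. Spearman's rho was -0.73 over 2664 control and -0.81 over 673 tetYAP 4W barcodes, and -0.28 and -0.21 when the ribosomal protein share was taken of the UMIs outside mitochondrial genes. Among barcodes with at most 30% mitochondrial UMIs it was -0.52 over 1644 control but -0.03 over 85 tetYAP 4W barcodes, where the share of the nuclear RNA Malat1 had a rho of -0.69 with the ribosomal protein share (-0.06 in the control). These are descriptions over barcodes of 1 library, and both shares of the first pair have the same total. Barcodes with up to 20% mitochondrial UMIs had a ribosomal protein share of 5.96% in the control (198 barcodes) and 3.86% in tetYAP 4W (21 barcodes), a log2 ratio of -0.62. From 20 to 30% the ratio was -0.33 (1446 and 64 barcodes), from 30 to 40% it was -0.19 (885 and 47) and from 40 to 50% it was -0.20 (95 and 61). Above 50%, where 480 of the 673 tetYAP 4W but only 40 control barcodes lay, the direction was the opposite, with a log2 ratio of 0.72 (0.63 to 0.81). In the 10 control barcodes from 50 to 60% the control share was 1.69%, and in the 30 above 60% it was 0.91%. The size and direction of the difference depended on the mitochondrial share at which the libraries were compared.

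**Figure D2:**
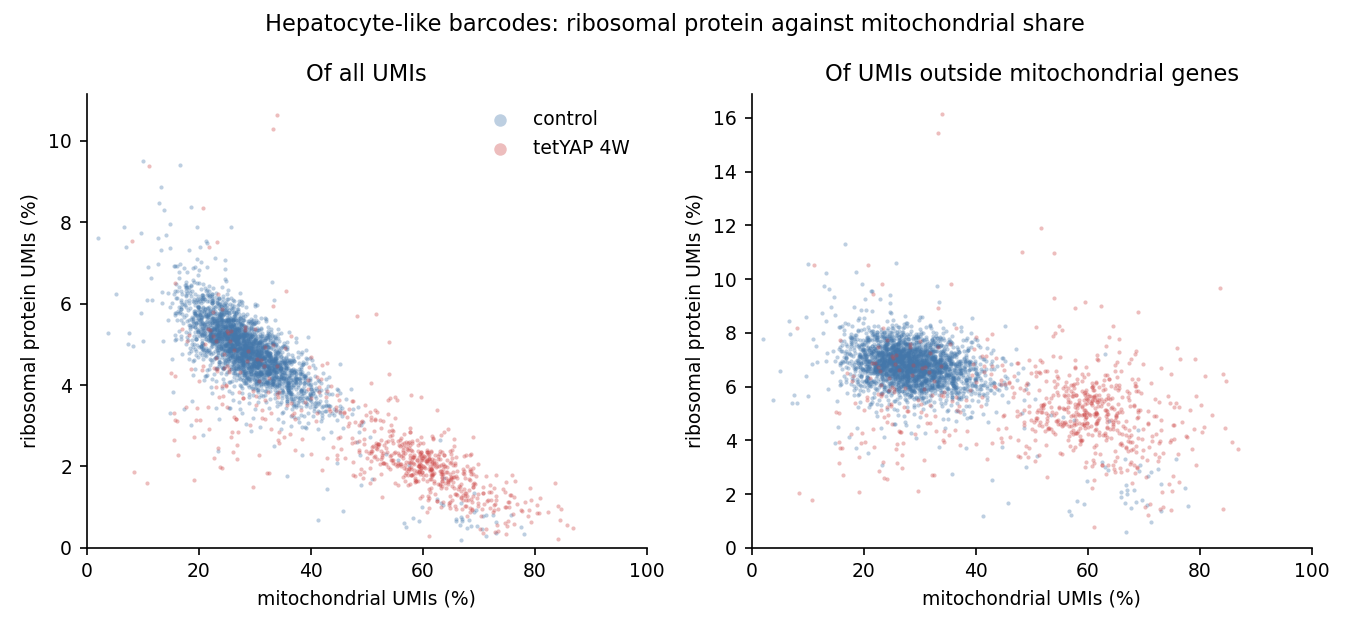
Each point is a hepatocyte-like barcode of the control (blue, 2664) or tetYAP 4W library (red, 673), with its mitochondrial share of UMIs on the x axis and its ribosomal protein share on the y axis, of all UMIs (left) or of UMIs outside mitochondrial genes (right). On the left the barcodes of both libraries lie along a falling band (rho -0.73 and -0.81), and most tetYAP 4W barcodes lie above 50% mitochondrial UMIs.

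The 3 hepatocyte-like clusters of the tetYAP 4W library differed from each other. The 105 barcodes of cluster 16, led by liver enzymes such as Arg1 and Bhmt, had a ribosomal protein share of 4.44% (4.38 to 4.51) and 32.0% mitochondrial UMIs, which against all control hepatocyte-like barcodes was a log2 ratio of -0.12 (-0.14 to -0.10). The 490 barcodes of cluster 17, led by Cdh1, Fgfbp1 and mitochondrial genes, had 1.95% (1.93 to 1.97) and 61.9% mitochondrial UMIs, a log2 ratio of -1.31. The 78 barcodes of cluster 15, rich in the nuclear RNA Malat1 at 14064 CPM (UMIs scaled to a total of 1000000), had 2.22% (2.17 to 2.27) and 38.9% mitochondrial UMIs, a log2 ratio of -1.12. Of the UMIs outside mitochondrial genes the ratios were -0.06, -0.41 and -0.90 in clusters 16, 17 and 15. The control clusters ran from 3.49% in the cluster richest in Malat1 (4139 CPM, 131 barcodes) to 5.28%. In both libraries, therefore, the hepatocyte-like cluster with the most Malat1 had the lowest share of the UMIs outside mitochondrial genes (5.37% in the control and 3.63% in tetYAP 4W). Without cluster 17 the log2 ratio of the class was -0.49.

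The members moved together. With all UMIs as total, all 80 were lower in tetYAP 4W hepatocyte-like barcodes, each with an interval below 0. Of them 49 were lower by at least 2-fold, where 18% of all 10668 genes with at least 10 UMIs were. None was higher by 2-fold, where 15.3% of all genes were. The median log2 ratio was -1.05 over the members (-1.53 to -0.57) and -0.23 over all genes. Direction and 2-fold count depended on the total. The UMIs outside mitochondrial genes as total raise every log2 ratio of this class by the same amount. Rpl7l1 and Rpl22l1 then lay above 0, and 0 of 80 were past 2-fold, where the median of all genes was 0.45. In cluster 16 alone, with all UMIs, 57 of 80 members were below the control and 0 by 2-fold. There 21 members had an interval below 0 and 2 had one above 0. The median log2 ratio in cluster 16 was -0.10 over the members and 0.54 over all genes. Once the ratio of the module as a whole was subtracted, 69 of the 80 members lay within 0.25 of it and 79 within 0.50.

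**Figure D3:**
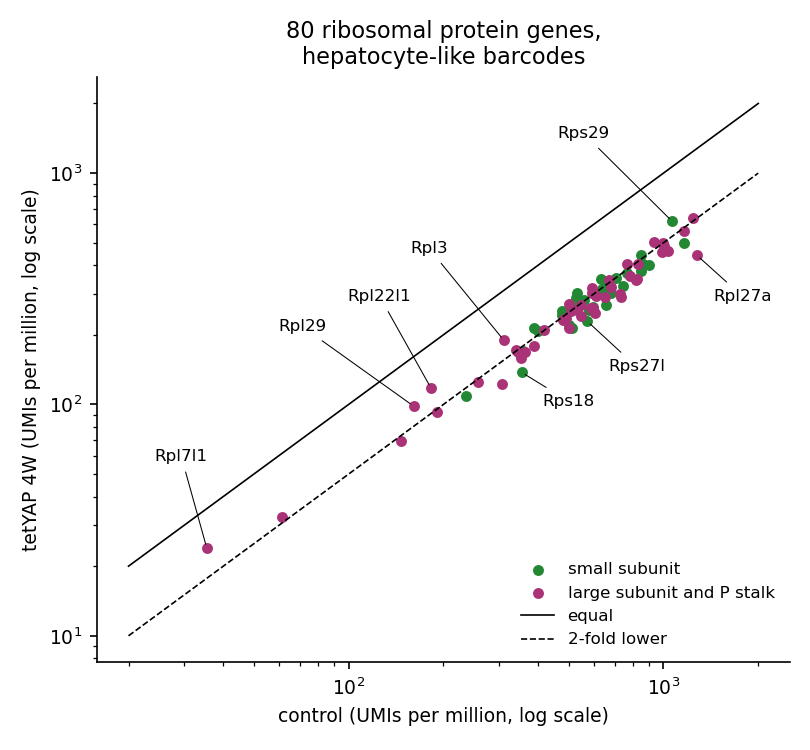
Level of the 80 ribosomal protein genes in hepatocyte-like barcodes, control (x axis) against tetYAP 4W (y axis), in CPM on log scales, with the lines of equal level (solid) and of a 2-fold lower level (dashed). All points lie below the solid line, from Rpl7l1 (35.5 against 23.9) nearest to it to Rpl27a (1275 against 442) farthest from it.

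Of the small subunit, all 32 genes were lower with all UMIs as total, with a median of -1.07 and 18 past 2-fold. Rps18, a component of the head of the subunit, had 355 CPM in control and 138 in tetYAP 4W hepatocyte-like barcodes, the lowest ratio of the subunit at -1.37 (-1.52 to -1.22). Rps27l, the paralog of Rps27 known as a target of p53, went from 573 to 229 (-1.32), and Rps2, which sits near the entry of the mRNA, from 655 to 269 (-1.28). Least lowered was Rps29, a small zinc-finger protein, from 1066 to 618 at -0.79 (-0.86 to -0.71), followed by Rps19, the gene most often mutated in Diamond-Blackfan anaemia, from 530 to 304 (-0.80). Rps6, the substrate of the S6 kinases downstream of mTORC1, went from 399 to 208 (-0.94). Rpsa, also known as the laminin receptor, went from 768 to 369 (-1.06), and Rps27a, made as a fusion with ubiquitin, from 903 to 400 (-1.17).

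Of the large subunit with its stalk, all 48 genes were lower with all UMIs as total, with a median of -1.05 and 31 past 2-fold. The lowest ratio of all members was that of Rpl27a, on chromosome 7 from 109519195 to 109522369 (RefSeq, GRCm38.p6), with 1275 CPM in the control and 442 in tetYAP 4W (-1.53, -1.61 to -1.45). Rpl10, the X-linked protein that closes the late assembly of the subunit, went from 733 to 290 (-1.34), and Rpl23a, which lies at the exit of the peptide tunnel, from 307 to 123 (-1.32). Rpl11 and Rpl5, which bind Mdm2 when they are not assembled, went from 729 to 302 (-1.27) and from 352 to 158 (-1.15). The highest ratios belonged to Rpl7l1, a paralog of Rpl7 at -0.57 (-0.97 to -0.19, 295 and 70 UMIs), Rpl22l1, the paralog of Rpl22 at -0.64 (-0.81 to -0.47), Rpl29 at -0.71 and Rpl3, which reaches into the catalytic centre, at -0.72. Rpl7l1 and Rpl22l1 were thus the least lowered of the 80, and the third paralog by name, Rps27l, was among the most lowered. The stalk genes, which recruit elongation factors, had ratios of -0.88 (Rplp0), -0.96 (Rplp1) and -1.05 (Rplp2). The 4 X-linked members (Rpl10, Rpl36a, Rpl39 and Rps4x) ran from -1.34 to -0.90, within the range of the other 76.

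Over all barcodes, which needs no class, the direction was the other one. The members had 6.43% of UMIs in tetYAP 4W (6.42 to 6.45) and 4.94% in the control (4.92 to 4.95), a log2 ratio of 0.38 (0.38 to 0.39). This total mixes the lower share of hepatocyte-like barcodes with the many immune and endothelial-like barcodes of the tetYAP 4W library, and the change in each gene per cell cannot be told apart from the change in the classes. None of the 80 members was past 2-fold in either direction, where 38.3% of 12621 genes were higher and 7.89% lower by 2-fold, and 72 were above 0. The median of the members was 0.38 and that of all genes 0.60, and with TMM factors in place of totals the module had -0.18 and all genes 0.035. The members higher by 2-fold were 6 with the UMIs outside mitochondrial genes as total (45.6% of all genes) and 46 without barcodes above 30% mitochondrial UMIs (51.7%). Highest were genes of the small subunit. Rps15a had 551 CPM in the control and 1080 in tetYAP 4W (0.97, 0.92 to 1.02), Rps27 had 693 and 1280 (0.88), and Rps19 and Rps24 followed at 0.84 and 0.81. Lowest was Rps27l, on chromosome 9 from 66944624 to 66949522, with 565 and 289 (-0.97, -1.04 to -0.89), followed by Rps2 at -0.43, Rpl10 and Rpl27a at -0.13 and Rpl7l1 at -0.12.

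Within the tetYAP 4W library nearly all members were higher outside the hepatocyte-like class. By at least 2-fold, 78 of 80 were higher in macrophage-like barcodes (49.5% of all genes), 79 in endothelial-like (61.6%), 78 in T or NK cell-like (46.2%) and 78 in B cell-like barcodes (55%). These counts depended on the total, since mitochondrial genes took 55.6% of hepatocyte-like and 31.1% of macrophage-like UMIs. Of the UMIs outside mitochondrial genes the share in macrophage-like barcodes was 2.07-fold that of hepatocyte-like ones in place of 3.22-fold. The members higher by 2-fold were then 39 in macrophage-like (28.5% of all genes), 69 in endothelial-like (37.4%), 76 in T or NK cell-like (24.4%) and 74 in B cell-like barcodes (27%). Without cluster 17, with all UMIs, they were 50 (24%), 73 (36.1%), 78 (23.2%) and 75 (18.4%) in the same order. In the control, 0 of 80 were higher by 2-fold in endothelial-like barcodes, where 33.8% of all genes were, and the module had a log2 ratio of 0.17. Most of those barcodes were in cluster 4, with hepatocyte markers at 9.86% of UMIs. In control T or NK cell-like barcodes (15 barcodes) the log2 ratio of the module to hepatocyte-like ones was 1.25. The median log2 ratio of the members to the hepatocyte-like barcodes of tetYAP 4W was 2.75 in T or NK cell-like barcodes, against 0.90 over all genes, 2.07 against 1.39 in endothelial-like and 1.63 against 0.98 in macrophage-like barcodes. The SD of the members' distance from the ratio of the module was 0.50 in T or NK cell-like, 0.31 in macrophage-like and 0.28 in endothelial-like barcodes. Between the libraries it was 0.17 in hepatocyte-like, 0.25 in macrophage-like and 0.28 in endothelial-like barcodes.

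The ends of that spread were held by few genes. Rps27l had the lowest ratio in T or NK cell-like barcodes (0.58, 0.35 to 0.81), in endothelial-like barcodes (0.83) and in macrophage-like barcodes (0.40, 0.21 to 0.58), while Rps27 had 3.66 (3.55 to 3.77), 2.36 and 1.66 in the same classes. Rps29 led in macrophage-like barcodes at 2.35 (2.26 to 2.43), followed by Rpl37a and Rps28 at 2.12, and Rps9 and Rps23 at 2.03. Rps15a, Rpl12 and Rps24 came next after Rps27 in T or NK cell-like barcodes, at 3.56, 3.54 and 3.45. Besides Rps27l the low end was held by Rpl7l1 (0.73 in T or NK cell-like and 0.49 in macrophage-like barcodes, from 25 and 40 UMIs) and Rps2 (1.70 in T or NK cell-like barcodes, and 540 against 269 CPM in macrophage-like against hepatocyte-like ones), with Rpl7a and Rpl27 also among the 5 lowest in macrophage-like barcodes (1.15 and 1.01).

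The same 2 paralogs can be set against each other, since Rps27 and Rps27l encode near-identical proteins of the small subunit. Counts of paralogs this alike are uncertain where a read could come from either gene. Rps27l made up 46.7% of the UMIs of the pair in control hepatocyte-like barcodes (45.7 to 47.6, 4763 and 5444 UMIs) and 40.5% in tetYAP 4W ones (38.2 to 43.0, 671 and 984 UMIs). In tetYAP 4W it made up 22.1% in macrophage-like (20.1 to 24.2), 19.1% in endothelial-like, 13.2% in neutrophil-like, 7.48% in T or NK cell-like (6.55 to 8.51) and 5.63% in B cell-like barcodes (4.31 to 7.20). In the control it made up 28.9% in macrophage-like, 38.0% in endothelial-like and 17.1% in T or NK cell-like barcodes. The intervals of the hepatocyte-like class did not overlap with those of the other tetYAP 4W classes, erythroid-like barcodes (27.5%, 25 and 66 UMIs) included. The proportion was higher in the control than in the tetYAP 4W library in each of the 5 classes with at least 10 barcodes in both, although the intervals of the macrophage-like barcodes overlapped (from 22.6% upward in the control and up to 24.2% in tetYAP 4W). As a share of all UMIs, hepatocyte markers were also higher in the control in each of these classes. Of the UMIs outside mitochondrial genes they had 22.5%, 18.2% and 11.6% in clusters 17, 16 and 15. The control hepatocyte-like clusters had between 10.7% and 15.4%.

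**Figure D4:**
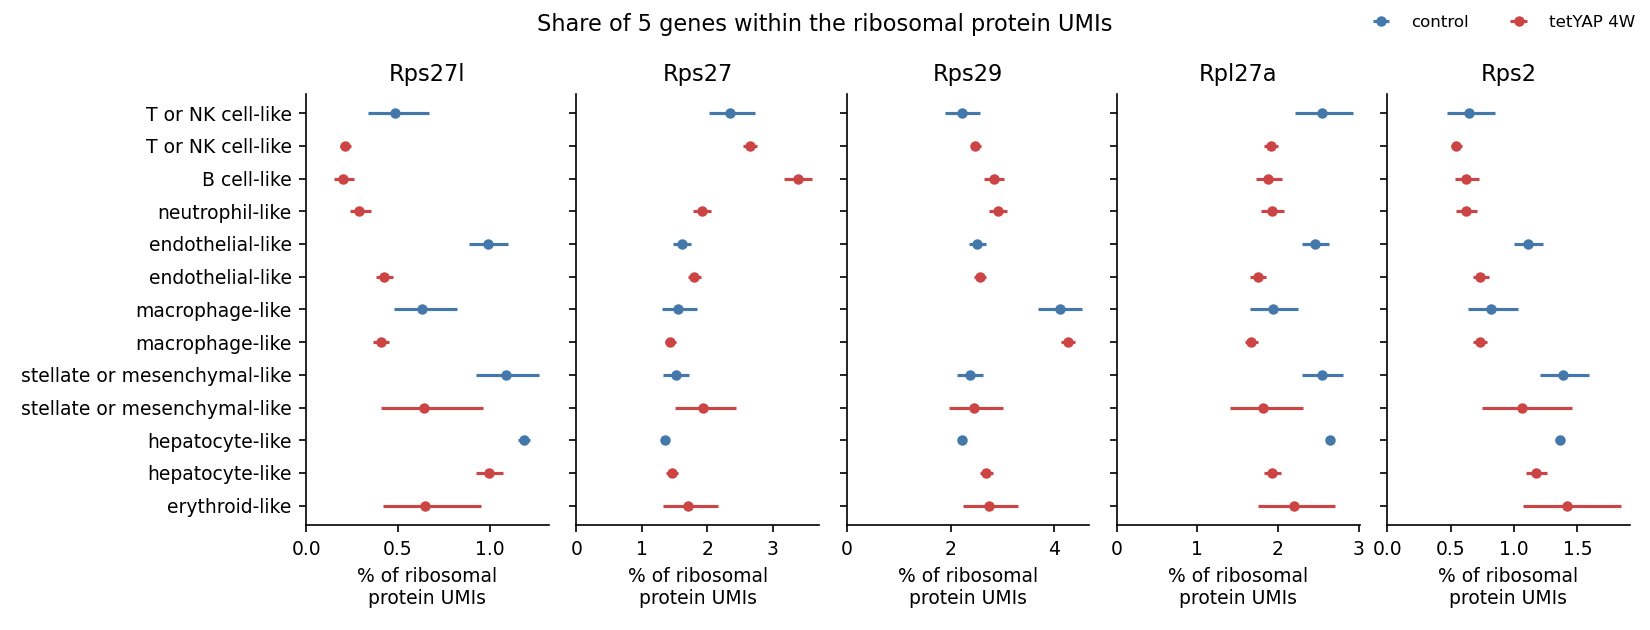
Share of Rps27l, Rps27, Rps29, Rpl27a and Rps2 (x axes) in the ribosomal protein UMIs of each class (y axis) in the control (blue) and tetYAP 4W (red) libraries, with exact 95% binomial intervals. Rps27l falls from 1.19% in control hepatocyte-like barcodes to 0.21% in T or NK cell-like and 0.20% in B cell-like barcodes of tetYAP 4W. Rps27 is highest in B cell-like barcodes (3.38%), and Rps29 is highest in macrophage-like barcodes of both libraries (4.10% and 4.25%).

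The order of the members by their share of the module was otherwise much alike from class to class. Spearman's rho over the 80 genes was 0.96 between the hepatocyte-like barcodes of both libraries, 0.96 between their T or NK cell-like barcodes and 0.94 between their macrophage-like barcodes, and it was 0.82 between control hepatocyte-like and control T or NK cell-like barcodes. The classes compared share libraries and hepatocyte marker RNA, and the values are descriptions. Rps29 had the most UMIs of the 80 over both libraries (23612), with Rpl37a (22726) and Rplp1 (22609) next, and Rpl7l1 had the fewest (570). The UMIs of a 3' library are not divided by length. The 10 most abundant members held 22.4% of the UMIs of the module.

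Small subunit genes had 41.4% of the ribosomal protein UMIs in control (41.2 to 41.5) and 41.9% in tetYAP 4W hepatocyte-like barcodes (41.5 to 42.3). The difference there was 0.53 percentage points, while over all barcodes the proportion was 41.6% in the control and 44.2% in tetYAP 4W. In tetYAP 4W the proportion was 44.0% in endothelial-like, 44.8% in T or NK cell-like, 45.0% in macrophage-like and 46.4% in B cell-like barcodes (45.9 to 47.0), all above the hepatocyte-like interval. In the control it was 42.9% in endothelial-like, 44.3% in T or NK cell-like and 44.1% in macrophage-like barcodes.

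Several genes close to the members fall outside the symbol rule. Fau, which encodes a small subunit protein fused to a ubiquitin-like protein, had a ratio in hepatocyte-like barcodes of -1.12 (-1.20 to -1.04), within the range of the members. Rpl36al, the autosomal copy of Rpl36a, went from 260 to 78.2 CPM there, at -1.73 (-1.94 to -1.54) lower than any member, and over all barcodes it had -1.12. Rps27rt, a copy of Rps27, had 78 and 21 UMIs in hepatocyte-like barcodes (-0.39, -1.16 to 0.32) and a ratio of 1.18 over all barcodes, on the side of Rps27 and not of Rps27l. The 9 rows named as ribosomal protein pseudogenes held 489 UMIs in all, and their ratio over all barcodes was 0.17 (-0.09 to 0.44).

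Gene lists around the ribosome were set beside the members in hepatocyte-like barcodes, where the median of all genes was -0.23, with 18% lower and 15.3% higher by 2-fold. The medians moved with the barcodes used: without those above 30% mitochondrial UMIs the median was 1.07 over all genes and -0.23 over the mitochondrial ribosome, and above 0 for the other 4 lists. The 18 translation factors and other TOP genes had a median of -0.82 (0.064 under the 30% limit), with 4 lower by 2-fold (22.2%), near the share of all genes. Eef1a1, the carrier of aminoacyl-tRNA, had -0.79 and Tpt1, a classical TOP mRNA, had -0.93. Naca had -1.26 and Hnrnpa1 was the one gene with an interval above 0, at 0.51 (0.07 to 0.93). The 23 initiation factors had a median of -0.83 with 7 lower by 2-fold (30.4%), and medians of 0.34 under the 30% limit and 0.15 without cluster 17. They ran from Eif3j1 at -1.62 and Eif4e, the cap-binding protein, at -1.48 to Eif4g1, the scaffold of the cap complex, at -0.10 (-0.35 to 0.14).

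The 30 ribosome biogenesis genes had a median of -0.45, above that of the ribosomal proteins, with 6 lower (20%, near the share of all genes) and 1 higher by 2-fold. The median was 0.96 under the 30% limit and 0.74 without cluster 17. Npm1 and Ncl, abundant proteins of the nucleolus, had -0.48 and -0.52. Nop10 had -1.76 and Rrs1 -1.70, while Taf1d, part of the RNA polymerase I machinery, had 1.43 (0.89 to 1.97) and Nop56 0.35 (-0.22 to 0.91). Of the 15 counted genes of mTORC1 and TOP control the median was -0.08 (1.30 under the 30% limit and 0.95 without cluster 17), Eif4ebp1, the inhibitor of Eif4e, had -1.50 and Larp1 -0.04 (-0.37 to 0.28). Mtor itself had 0.57 with 61 and 32 UMIs (-0.09 to 1.21). Myc, which drives ribosome production, had 3 control and 7 tetYAP 4W UMIs there, a log2 ratio of 2.73 with an interval from 0.60 to 5.31.

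The 78 genes of the mitochondrial ribosome, which translates the mRNAs of the mitochondrial genome, had a median of -1.18, with 57 lower by 2-fold (73.1%), and medians of -0.23 under the 30% limit and -0.41 without cluster 17. Mrps28 had the lowest ratio of those named at -2.39 and Mrpl18 and Mrps9 the highest at -0.25. The mitochondrial mRNAs took a larger share of UMIs in the same class. Both are shares of 1 total, so a larger mitochondrial share by itself lowers the share of every other gene. The median of this list was less low with the UMIs outside mitochondrial genes as total, and the 57 genes were counted with all UMIs. Of the 4 genes of the response to unassembled ribosomal proteins, Mdm4 had 1.48 (0.92 to 2.04) and Cdkn1a 0.80 (0.09 to 1.48), while Mdm2 had 0.51 (-0.10 to 1.09) and Trp53 -0.06 (-0.78 to 0.61). The nuclear RNAs Malat1 and Neat1 were higher over the class at 1.40 and 1.76. By cluster, Malat1 had 14064 CPM in cluster 15, but 721 in cluster 16 and 497 in cluster 17. Control hepatocyte-like barcodes had 751 CPM.

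**Figure D5:**
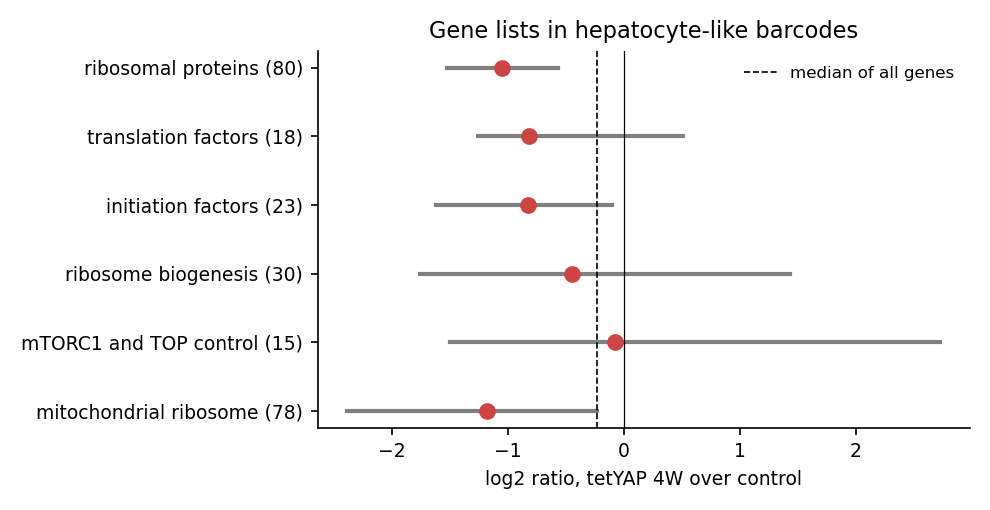
Median (red point) and lowest to highest gene (grey line) of the log2 ratio of tetYAP 4W over control in hepatocyte-like barcodes (x axis) for the ribosomal proteins and 5 related lists (y axis, number of genes counted in parentheses), with the median of all genes dashed at -0.23. The ribosomal proteins (-1.05) have the narrowest range of the 6, not adjusted for the number of UMIs per gene. The mitochondrial ribosome list has the lowest median (-1.18).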

How the data were processed

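UMI counts per gene and barcode were used as the authors deposited them, raw and as whole numbers. Per the labels and the study's methods the authors processed the reads with Cell Ranger on mm10, down-sampled to 3000 barcodes per condition and removed barcodes above 7500 UMIs; analyses there used Seurat 3. All 4513 barcodes were kept, and doublets were not removed.

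Barcodes were clustered with scanpy 1.11.5 (10000 UMIs per barcode, log scale, 2000 variable genes without the ribosomal protein symbols, 20 components, 15 neighbours, Leiden resolution 0.8). A cluster was called like a class other than hepatocytes where at least 3 markers reached 10 UMIs and 3-fold over the other barcodes of its library and no other class had more markers among its 10 leading genes. A cluster without such markers was called hepatocyte-like where at least 3 hepatocyte markers reached 10 UMIs and no marker of another class was among its 10 leading genes, and was otherwise left unnamed. UMIs were summed per library and class. Ratios are log2 of shares, with counts under 3 set to 3, and exact conditional binomial intervals; shares have Clopper-Pearson intervals. Intervals cover counting error only. Ratio code was tested on simulated data. TMM factors came from edgeR 4.0.16, as a normalization only.

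Genes named were the 10 most abundant members, the 5 highest and 5 lowest per comparison (from 100 UMIs), fixed members, and of each list the 2 highest and 2 lowest (from 50 UMIs) with 10 fixed genes. The members, lists and this rule were chosen with earlier results of these data known. Mitochondrial bins, single hepatocyte-like clusters, X-linked members, the comparison of Rps27 with Rps27l the removal of clusters and the counts within tetYAP 4W under other totals were added after the data were seen. Start windows came from RefSeq on GRCm38.p6. Some genes named by the rule are not reported here.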

Additional observations from a re-analysis of the deposited data

Results flagged for a closer look

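In 4 classes the ribosomal protein share moved in the opposite direction between the libraries to that in hepatocyte-like barcodes, where the log2 ratio was -1.07. The log2 ratio of tetYAP 4W over control was 0.8253 in endothelial-like, 0.4833 in T or NK cell-like, 0.4235 in macrophage-like and 0.1929 in stellate or mesenchymal-like barcodes. With 1 library per group the difference between the classes was not tested.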

How the results depend on the processing

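With 1 library per group no library could be left out. No paired analysis was possible because each group has 1 library. Against the log2 ratio of -1.07 for the share in hepatocyte-like barcodes, the ratio was -0.39 with UMIs outside mitochondrial genes as total, -0.45 when the 50 most abundant genes were left out as well, -0.93 with TMM factors, -0.38 without barcodes above 30% mitochondrial UMIs, -1.09 without barcodes under 2500 UMIs, -0.98 with each barcode weighted equally and -0.72 with clusters drawn with the member genes kept. Alternatives chosen after the data were seen gave -0.49 without cluster 17, -1.08 without clusters 3 and 15 and -0.44 with both the smaller total and the 30% limit. Each of these settings kept the direction, but among barcodes above 50% mitochondrial UMIs it was the opposite, with a log2 ratio of 0.72. The members past 2-fold in hepatocyte-like barcodes (49) were 0 with either smaller total, without barcodes above 30% mitochondrial UMIs and without cluster 17. They were also 0 with the total and limit together, 26 with TMM factors, 32 with equal weights and 7 with the member genes kept. The median of all genes, -0.23 at first, was 0.45 and 0.38 with the smaller totals. It was 1.07 under the 30% limit, 0.73 without cluster 17 and 1.01 with total and limit together. With TMM factors, equal weights and the member genes kept it was -0.086, -0.16 and -0.086. The share of all genes past 2-fold under these settings is not given here. The 30% limit leaves 85 tetYAP 4W barcodes. The small subunit gained 0.53 percentage points in hepatocyte-like barcodes, and 1.04 with the member genes kept.

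Over all barcodes (0.38) the ratio was 0.64 and 0.37 with the smaller totals, -0.18 with TMM factors, which reversed it, 1.05 without barcodes above 30% mitochondrial UMIs, 0.33 with equal weights, 0.39 without paralog symbols, 0.81 without cluster 17, 0.41 without clusters 3 and 15 and 0.98 with the total and limit together. Members higher by 2-fold (0, where 38.3% of all genes were) were 6 with UMIs outside mitochondrial genes (45.6% of all genes), 46 under the 30% limit (51.7%), 17 without cluster 17 (48.6%), 1 without clusters 3 and 15 (38%) and 38 with total and limit together (49.4%), so that under the 30% limit the share of the members was near that of all genes. TMM factors gave 1, which was lower. The median of all genes moved from 0.60 to between 0.035 (TMM) and 1.05 (30% limit) over all barcodes and from -0.23 to 0.45 with UMIs outside mitochondrial genes and 1.07 under the 30% limit in hepatocyte-like barcodes.

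The list medians in hepatocyte-like barcodes moved with the same choices. With UMIs outside mitochondrial genes, and then also without the 50 most abundant, they were -0.14 and -0.20 for translation factors, -0.15 and -0.21 for initiation factors, 0.60 and 0.54 for mTORC1 and -0.50 and -0.57 for the mitochondrial ribosome. The smaller totals gave 0.23 and 0.17 for biogenesis. Under the 30% limit they were 0.064, 0.34, 1.30 and -0.23 in the same order and 0.96 for biogenesis, without cluster 17 they were -0.17, 0.15, 0.95, -0.41 and 0.74, and with total and limit together 0.0092, 0.28, 1.25, -0.29 and 0.91. The sign thus turned in 4 of 5 lists under the 30% limit, alone or with the smaller total, and in 3 without cluster 17, where the median of all genes was 1.07, 1.01 and 0.73. It turned for mTORC1 and biogenesis with the smaller totals, and for mTORC1 with TMM factors (0.066). With the member genes kept the translation factors had -0.49. The cause of these shifts was not tested. Leiden resolutions of 0.4 and 1.2, minimums of 1 and 50 UMIs and an offset of 0.5 UMIs moved no ratio or list median of the members and lists beyond its counting interval, and no count of members by 1.5 times. The median of all genes in hepatocyte-like barcodes, however, was 0.23 with a minimum of 1 UMI and -0.43 with 50, and over all barcodes 0.49 and 0.45.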
